A study of Homo sapiens with 56 samples.

Results

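The 40 genes described here encode the proteasome and its activators: 7 alpha subunits of the 20S barrel, 7 constitutive beta subunits, the 3 beta subunits of the immunoproteasome, 6 ATPases and 12 other subunits of the 19S cap, 4 activators (PSME1 to PSME4) and the assembly factor POMP. They were taken by gene symbol from a table of 21596 entries, and all 40 were found and passed the filter on low values. The 33 genes left after the immunosubunits and activators are set apart are called the core genes below. Their messenger RNA was followed through 56 poly-A RNA sequencing libraries of cultured mantle cell lymphoma, a B-cell tumour.

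The 20S barrel degrades proteins in its interior, where the beta subunits PSMB6, PSMB7 and PSMB5 carry the caspase-like, trypsin-like and chymotrypsin-like sites, and the 19S cap recognises ubiquitin, unfolds the substrate and feeds it in. In cells of the immune system, and in others under interferon, PSMB9, PSMB10 and PSMB8 take the places of PSMB6, PSMB7 and PSMB5, and the ring of PSME1 and PSME2 (PA28) docks onto the barrel, which favours peptides for MHC class I. Cells whose proteasome is inhibited are known to raise transcription of the subunit genes, the bounce-back response, through the transcription factor NFE2L1, which with small MAF partners binds antioxidant response elements in their promoters.

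Each of the 4 cell lines is a single established line, with 13 libraries for Z138, 15 for JEKO-1, 15 for MINO-P and 13 for MINO-VR. As single codes, 5 libraries were CON, 6 BTZ, 11 IBR, 6 CLF, 6 S63845 and 4 YM155. Combined codes were BTZ_CLF in 4, BTZ_YM155 in 2, BTZ_S63845 in 1, IBR_CLF in 8, IBR_YM155 in 2 and IBR_S63845 in 1. The design text names a class PI and a class BTKi beside YM155, a compound developed to suppress BIRC5, and S63845, an inhibitor of MCL-1. The labels spell out neither CON, CLF, BTZ and IBR nor the endings P and VR, so these are used as written, with CON taken as untreated. Doses and times are not given in the sources used here. The 56 libraries fall into 37 groups of line and treatment, of which 22 hold 1 library, 11 hold 2 and 4 hold 3. Nothing says that libraries of a group came from separate cultures, so the p-values measure only the spread between these libraries. Replicate numbers below only name libraries. The library names fall into a series HK, which holds the CON, CLF, BTZ and BTZ_CLF libraries of MINO-P and MINO-VR, and a series MCL, which holds all others, so line, treatment and series overlap.

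Promoters are shown for genes that were higher and genes that were lower with BTZ, so that their upstream letters can be read beside the values. RefSeq promoter windows (GRCh38.p14, 250 bases before to 50 after the start of transcription) matched 35 of the 40 genes. Both strands were searched for TGACNNNGC, the core of the antioxidant response element and for GAAA, any 2 bases and GAAA again, the core of the interferon response element. The first was found in 8 of 28 matched core genes against 16.1% of all 27305 genes with a window. The interferon response element was found in 4 of the 5 genes PSMB8, PSMB9, PSMB10, PSME1 and PSME2, in 2 of 28 core genes (PSMB4 and PSMA4) and in 4.38% of all genes. A match is a description of the sequence and not a binding site.

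Printed from 200 bases before to 20 after the start of transcription, 5′ to 3′ on the gene's strand, with the matched letters of these 2 motifs in capitals, 3 genes that were higher with BTZ carry an antioxidant response element (PSMB3 passed only without JEKO-1 BTZ replicate 3). PSMD12, a 19S lid subunit, has it 165 bases upstream, PSMB3, a structural beta subunit, 104 bases upstream, and PSME4, the activator PA200, on the other strand 34 bases upstream.
PSMD12 (chr17:67366558-67366777, minus strand): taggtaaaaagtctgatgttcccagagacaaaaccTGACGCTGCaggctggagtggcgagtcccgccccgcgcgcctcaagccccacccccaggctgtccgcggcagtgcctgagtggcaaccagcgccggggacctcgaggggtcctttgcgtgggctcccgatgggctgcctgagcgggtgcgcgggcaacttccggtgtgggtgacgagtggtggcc
PSMB3 (chr17:38752541-38752760, plus strand): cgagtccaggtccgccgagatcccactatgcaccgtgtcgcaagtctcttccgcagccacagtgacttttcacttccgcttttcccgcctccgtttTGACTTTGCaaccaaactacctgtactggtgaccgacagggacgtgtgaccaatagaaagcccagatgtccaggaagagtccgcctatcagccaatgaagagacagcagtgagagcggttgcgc
PSME4 (chr2:53970974-53971193, minus strand): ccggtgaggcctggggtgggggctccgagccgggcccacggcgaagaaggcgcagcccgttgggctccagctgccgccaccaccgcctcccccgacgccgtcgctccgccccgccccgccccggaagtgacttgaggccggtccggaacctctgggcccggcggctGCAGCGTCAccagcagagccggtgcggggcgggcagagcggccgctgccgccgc
Next come PSMB8, PSMB9, PSME1 and PSME2, which were lower with BTZ, and PSMB10, which passed only with JEKO-1 BTZ replicate 3 included. The interferon response element begins 4 bases upstream in PSMB8, 21 in PSMB10 and 28 in PSME2, and lies just after the start in PSME1. PSMB8 has another window, at another start, without this element, and the printed window was picked because it carries it. The 3 immunosubunits had 4 windows, of which 50% held the element, and a gene was counted above if any of its windows did. In the PSMB9, PSME1 and PSME2 stretches the other capitals are antioxidant response elements, so those letters were not limited to genes that were higher.
PSMB8 (chr6:32844028-32844247, minus strand): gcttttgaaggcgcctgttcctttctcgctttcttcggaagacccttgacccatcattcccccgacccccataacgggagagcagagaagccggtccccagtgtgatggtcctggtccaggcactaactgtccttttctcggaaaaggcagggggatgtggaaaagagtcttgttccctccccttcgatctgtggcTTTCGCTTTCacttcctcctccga
PSMB9 (chr6:32853992-32854211, plus strand): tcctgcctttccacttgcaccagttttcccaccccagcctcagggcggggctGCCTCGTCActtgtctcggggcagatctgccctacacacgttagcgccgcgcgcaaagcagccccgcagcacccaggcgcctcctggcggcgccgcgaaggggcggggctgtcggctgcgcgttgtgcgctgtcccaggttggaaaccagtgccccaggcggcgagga
PSMB10 (chr16:67936831-67937050, minus strand): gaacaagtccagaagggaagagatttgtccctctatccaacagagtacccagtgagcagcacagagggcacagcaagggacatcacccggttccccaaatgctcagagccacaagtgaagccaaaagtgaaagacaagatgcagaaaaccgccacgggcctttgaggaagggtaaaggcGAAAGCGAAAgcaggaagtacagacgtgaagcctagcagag
PSME1 (chr14:24135994-24136213, plus strand): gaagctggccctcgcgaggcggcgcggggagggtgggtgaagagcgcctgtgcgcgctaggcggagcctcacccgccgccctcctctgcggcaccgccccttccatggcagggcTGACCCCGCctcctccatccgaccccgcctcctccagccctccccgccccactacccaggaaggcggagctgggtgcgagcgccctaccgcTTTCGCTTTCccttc
PSME2 (chr14:24146591-24146810, minus strand): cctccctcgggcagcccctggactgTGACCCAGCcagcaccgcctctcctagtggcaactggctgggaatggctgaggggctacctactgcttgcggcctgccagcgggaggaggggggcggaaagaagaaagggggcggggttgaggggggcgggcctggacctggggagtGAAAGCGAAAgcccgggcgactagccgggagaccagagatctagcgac

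Depth recovered from the steps of the low values ran from 5.52 to 21.6 M reads per library (median 16 M). Mitochondrial transcripts took 1.91% to 80.5% of the reads (median 6.69%), and at least 65.5% in JEKO-1 BTZ replicates 1 and 2 and both JEKO-1 BTZ_CLF libraries. Values are therefore given as CPM, counts scaled to the same total of reads outside the 15 mitochondrial genes in every library, and the deposited scale is named where it alters a call. The B-cell genes MS4A1, CD79A, CD79B and PAX5 and the lymphoma genes CCND1 and SOX11 reached 1 CPM in 56 of 56 libraries. CD5 was at 0 in 10 libraries, with a median of 0 in Z138, and the summed T-cell and myeloid markers stayed at or below 6.88 and 28.3 CPM.

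Among the libraries, a pair stood apart and bears on the results. JEKO-1 BTZ replicate 3 had 11899 genes detected, the fewest, and its profile correlated with its nearest library (JEKO-1 S63845 replicate 1) at r = 0.76 across 13608 genes. Its core genes lay a median 2.23 below JEKO-1 CON on the log2 scale (-2.23), whereas those of JEKO-1 BTZ replicates 1 and 2 lay at 0.63 and 0.74. Heat-shock transcripts took 0.07% of its reads against 3.10% and 3.14% in the other pair. The library labelled Z138 IBR replicate 1 was nearest to Z138 BTZ replicate 1 (r = 0.94), with core genes at 1.54 above Z138 CON and 33 of 33 higher. Z138 IBR replicate 2 was nearest to Z138 IBR_CLF replicate 2 (r = 0.99), with core genes at 0.21. On the scale used here, the counts and called differences of BTZ against CON are given below with and without JEKO-1 BTZ replicate 3, and the counts of IBR against CON with and without the other.

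With BTZ the constitutive proteasome genes were higher, apart from 1 JEKO-1 library, and PSMB8, PSMB9, PSME1 and PSME2 were lower. In the comparison of 6 BTZ with 5 CON libraries (limma, Benjamini-Hochberg adjustment over 17203 genes, with line and series as terms), 17 of 40 genes passed an adjusted p of 0.05. Of these 12 rose, where 4.87% of all genes rose, and 5 fell, where 13.8% of all genes fell. The median difference was 0.59 over the 40 genes and -0.17 over all genes tested. Without JEKO-1 BTZ replicate 3, 38 of 40 passed: 34 rose (7.87% of all genes), namely all 33 core genes and PSME4, and 4 fell (15.5% of all genes), namely PSMB8, PSMB9, PSME1 and PSME2. The median was then 1.09 against -0.13 over all genes. In neither fit did the number of members that fell exceed the share of all genes that fell. Leaving out the library labelled Z138 IBR replicate 1 as well gave the same counts (7.95% of all genes rose and 15.6% fell). On the deposited scale, which counts mitochondrial reads, all 6 libraries gave 1 member that rose (1.75% of all genes) and 5 that fell (22.3%), with the median of all genes at -0.42. In bulk RNA, less RNA per cell cannot be told apart from fewer cells that carry it.

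**Figure D1:**
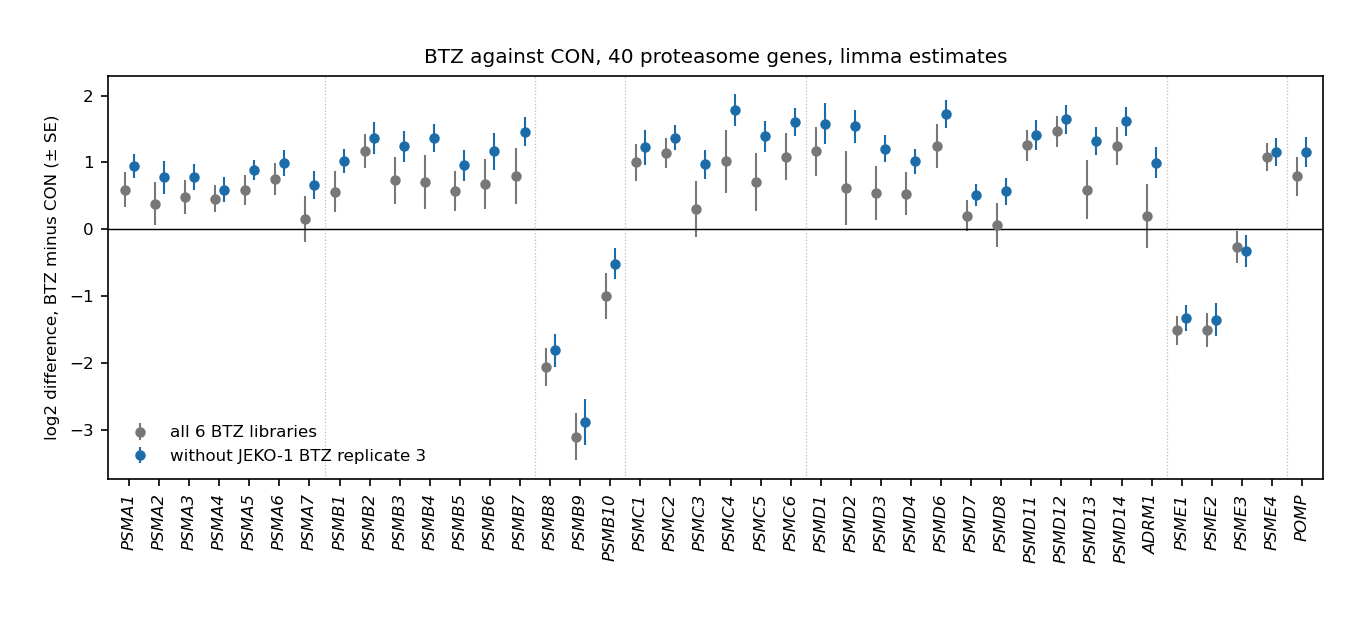
Log2 difference between BTZ and CON (vertical axis, limma estimate, bars are 1 SE) for each of the 40 genes, ordered by role with dotted lines between roles. Grey points use all 6 BTZ libraries and blue points leave out JEKO-1 BTZ replicate 3, and the 33 core genes and PSME4 lie above 0 in both while PSMB8, PSMB9, PSMB10, PSME1, PSME2 and PSME3 lie below 0.

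By role, the numbers that rose without that library were 7 of 7 alpha subunits (median 0.78), 7 of 7 constitutive beta subunits (1.24), 6 of 6 ATPases (1.38), 12 of 12 other 19S subunits (1.36) and POMP (1.15). With all 6 libraries they were 1 of 7, 1 of 7, 3 of 6, 5 of 12 and POMP. The alpha subunits form the outer rings that gate the barrel, and their estimates were the lower ones, from 0.59 for PSMA4 to 0.99 for PSMA6. Among the 19S genes the range ran from 0.51 for PSMD7 to 1.79 for PSMC4. No test compared the roles with each other. Reads of PSMC1 and PSMA6 may be shared with the copies PSMC1P1 (median 168 CPM) and PSMA6P1 (17.1 CPM), so both values are uncertain.

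PSMD12, a scaffold subunit of the 19S lid, stood highest among the genes that rose with all 6 BTZ libraries. Its CON values were 71.2 in MINO-P, 48.7 in MINO-VR, 105 in JEKO-1, and 82.1 and 80.9 in Z138. With BTZ they were 208 in MINO-P, 188 in MINO-VR, 234 and 289 in JEKO-1 replicates 1 and 2, and 249 in Z138, and 113 in JEKO-1 replicate 3. All 6 BTZ libraries lay above all 5 CON libraries (log2 difference 1.46, SE 0.24, adjusted p = 1.8e-05). It is also the 1 member that rose on the deposited scale (log2 difference 1.08, adjusted p = 0.0134). Without JEKO-1 replicate 3 its difference was 1.64 (SE 0.22).

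Next in order came PSMD11, PSMD14, PSMD6 and PSMB2. PSMD11, a neighbour of PSMD12 in the lid, stood between 105 and 148 CPM in CON and between 153 and 449 with BTZ, the lowest being JEKO-1 replicate 3, with no overlap (log2 difference 1.26, SE 0.23, adjusted p = 0.000108; 1.41, SE 0.22 without it). PSMD14, the deubiquitinase that removes ubiquitin chains as the substrate enters, was at 122 in MINO-P, 104 in MINO-VR, 101 in JEKO-1, and 108 and 91.3 in Z138 in CON. With BTZ it reached 345 in MINO-P, 325 in MINO-VR, 300.02 and 280.2 in JEKO-1 replicates 1 and 2, and 309 in Z138, but 50.5 in JEKO-1 replicate 3, below every CON library (log2 difference 1.25, SE 0.29, adjusted p = 0.00161; 1.61, SE 0.22 without it). PSMD6, another lid subunit, rose 2.37-fold (SE 0.33 on the log2 scale, adjusted p = 0.00515), and PSMB2, a beta subunit without a catalytic site, 2.25-fold (SE 0.25, adjusted p = 0.000726), and without JEKO-1 replicate 3 they rose 3.31-fold and 2.58-fold. PSMC4, an ATPase of the ring that unfolds substrates, ranged from 5.9 in JEKO-1 BTZ replicate 3 to 542 in MINO-P BTZ. It passed only without the former (log2 difference 1.79, SE 0.24, adjusted p = 3.84e-07).

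The catalytic beta subunits were higher in 5 of 6 BTZ libraries. PSMB5, with the chymotrypsin-like site, was at 71.8 in MINO-P, 96.7 in MINO-VR, 182 in JEKO-1, and 50.4 and 74.1 in Z138 in CON. It was at 108 in MINO-P, 166 in MINO-VR, 227 and 256 in JEKO-1 replicates 1 and 2, and 210.3 in Z138 with BTZ and at 39.996 in JEKO-1 replicate 3. Within each line the BTZ value exceeded the CON value except in that library, while across lines the groups overlapped, with JEKO-1 CON the highest CON library. PSMB6, with the caspase-like site, went from 77.6 in MINO-P, 73.8 in MINO-VR, 88.4 in JEKO-1, and 44.6 and 60.9 in Z138 to 160.2 in MINO-P, 210.3 in MINO-VR, 98.6 and 107 in JEKO-1 replicates 1 and 2, and 196 in Z138, and to 11.8 in JEKO-1 replicate 3. For PSMB7, with the trypsin-like site, CON values were 71.9 in MINO-P, 98.2 in MINO-VR, 293 in JEKO-1, and 111 and 97.4 in Z138. Its BTZ values were 169 in MINO-P, 373 in MINO-VR, 559 and 604 in JEKO-1 replicates 1 and 2, and 321 in Z138, and 26.1 in JEKO-1 replicate 3. With all libraries none of the 3 passed (adjusted p = 0.197, 0.215 and 0.188 by limma). Without the library that stood apart all 3 did, at 0.96 (SE 0.23) for PSMB5, 1.16 (SE 0.28) for PSMB6 and 1.46 (SE 0.22) for PSMB7 on the log2 scale.

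POMP, the chaperone that brings half-barrels together, stood at 81.1 in MINO-P, 107 in MINO-VR, 158 in JEKO-1, and 105 and 77.3 in Z138 in CON. With BTZ it stood at 168 in MINO-P, 237 in MINO-VR, 248 and 295 in JEKO-1 replicates 1 and 2, and 222 in Z138, and at 47.1 in JEKO-1 replicate 3 (log2 difference 0.79, SE 0.29, adjusted p = 0.0497; without that library log2 difference 1.15, SE 0.22, adjusted p = 0.000134). With all 6 libraries the call of POMP is marginal: it was lost in 21 of 30 alternatives (adjusted p up to 0.499), among them the Z138 name suffix as a block (adjusted p = 0.0571). PSME4, an activator found mainly in the nucleus, was the activator that rose. It was at 165 in MINO-P, 116 in MINO-VR, 137 in JEKO-1, and 75.6 and 104 in Z138 in CON and at 461 in MINO-P, 302 in MINO-VR, 273 and 279 in JEKO-1 replicates 1 and 2, and 172 in Z138 with BTZ, and at 220.3 in JEKO-1 replicate 3. No BTZ library overlapped CON (log2 difference 1.09, SE 0.21, adjusted p = 0.000195; 1.16, SE 0.21 without JEKO-1 replicate 3). PSME3, the nuclear activator PA28-gamma, ranged from 125 to 288 with BTZ and from 172 to 243 in CON and did not pass (log2 difference -0.26, SE 0.24, adjusted p = 0.497).

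Over all 40 genes, 3 were higher in every BTZ than in every CON library (PSMD11, PSMD12 and PSME4), where 1.19% of 13608 genes were, and 4 were lower (PSMB8, PSMB9, PSME1 and PSME2), where 3.28% were. With 5 BTZ libraries, leaving out JEKO-1 replicate 3, 25 were higher (3.65% of genes) and the same number, 4, lower (6.24% of genes).

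**Figure D2:**
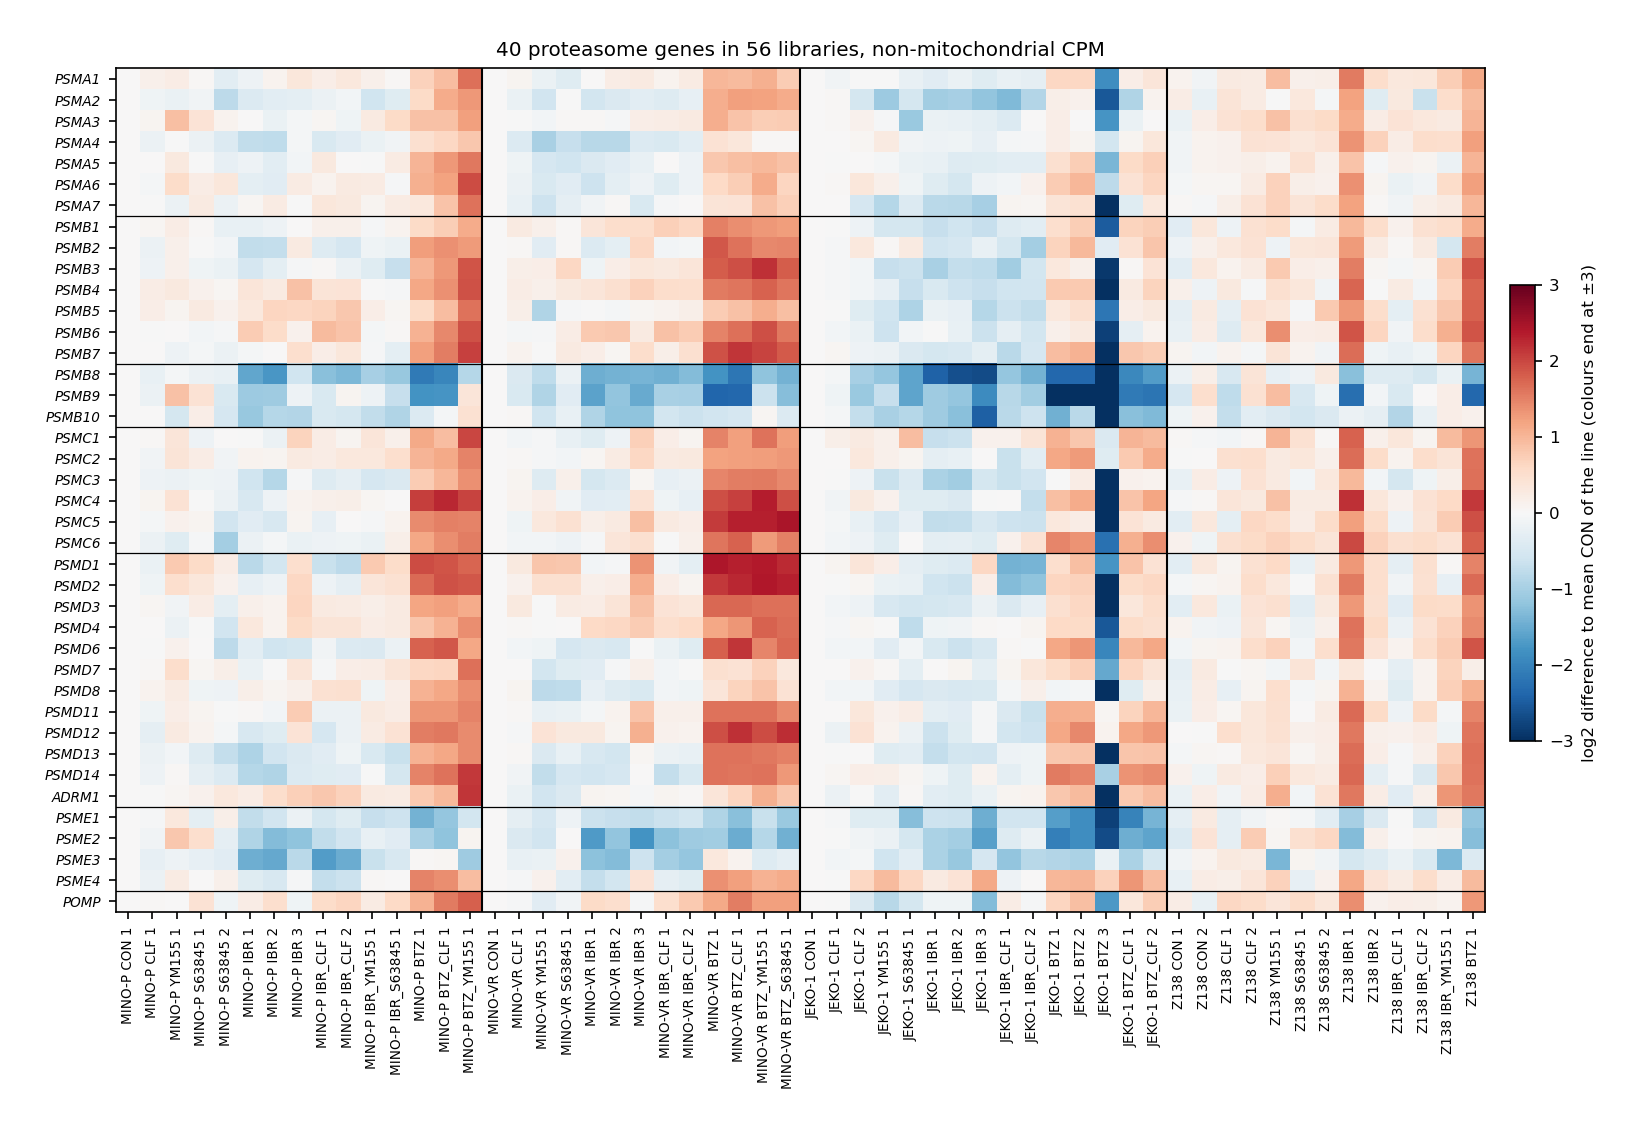
Log2 difference of each of the 40 genes (rows, by role) to the mean CON of the same line in each of the 56 libraries (columns, by line and treatment), with red for higher and blue for lower and colours ending at 3. The BTZ columns are red in the core rows and blue in the PSMB8, PSMB9, PSME1 and PSME2 rows, except JEKO-1 BTZ 3, which is blue in most rows, and the column labelled Z138 IBR 1 resembles Z138 BTZ 1.

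Among the immunosubunits, PSMB8 and PSMB9 went the other way. PSMB9, which replaces PSMB6 and lies on chromosome 6 (32844136 to 32860734, plus strand, hg38), was at 35 in MINO-P, 85.1 in MINO-VR, 107 in JEKO-1, and 26.6 and 54.7 in Z138 in CON. With BTZ it was at 9.46 in MINO-P, 15.5 in MINO-VR, 3.43 and 5.57 in JEKO-1 replicates 1 and 2, and 6.65 in Z138, and at 2.51 in JEKO-1 replicate 3, all below every CON value. The log2 difference was -3.10 (SE 0.35, adjusted p = 8e-08), a level 0.116 times that of CON, and without JEKO-1 replicate 3 it was -2.88 (SE 0.34, adjusted p = 5e-08).

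PSMB8, which replaces PSMB5 and is the neighbour of PSMB9 on chromosome 6 (32840717 to 32844679, minus strand), was at 104 in MINO-P, 184 in MINO-VR, 158 in JEKO-1, and 78.6 and 100.4 in Z138 in CON. With BTZ it was at 23 in MINO-P, 52.6 in MINO-VR, 30.0 and 30.1 in JEKO-1 replicates 1 and 2, and 33.3 in Z138, and at 9 in JEKO-1 replicate 3. Again no BTZ library reached a CON library (log2 difference -2.06, SE 0.28, adjusted p = 1.42e-06; without JEKO-1 replicate 3 log2 difference -1.81, SE 0.25, adjusted p = 7.02e-07). The antisense gene PSMB8-AS1 overlaps it and was lower too (log2 difference -2.58, SE 0.47, adjusted p = 9.7e-05). Both also overlap the outermost annotated start of PSMB9, and TAP1 (32845209 to 32853816, minus strand) lies inside the annotated span of PSMB9. The PSMB9 promoter printed above belongs to another start, which lies beyond TAP1. Use of strand in the counting is not given in the sources used here, so where PSMB8, PSMB8-AS1, PSMB9 and TAP1 overlap their reads cannot be told apart.

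PSMB10, which replaces PSMB7 and lies apart from them on chromosome 16 (67934506 to 67936864, minus strand), moved less. It was at 65.9 in MINO-P, 86.7 in MINO-VR, 146 in JEKO-1, and 49.1 and 58.2 in Z138 in CON, and at 49 in MINO-P, 57.7 in MINO-VR, 53 and 83 in JEKO-1 replicates 1 and 2, and 58.2 in Z138 with BTZ, with 6.86 in JEKO-1 replicate 3. It was lower in JEKO-1, MINO-P and MINO-VR and level with CON in Z138, and the groups overlapped. Its fall with all libraries (log2 difference -0.998, SE 0.35, adjusted p = 0.0363) did not pass without JEKO-1 replicate 3 (log2 difference -0.51, SE 0.23, adjusted p = 0.109).

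PSME1 and PSME2, the PA28 subunits, lie next to each other on chromosome 14 (24136163 to 24138967 and 24143362 to 24147570). PSME1 was at 160.4 in MINO-P, 213 in MINO-VR, 208 in JEKO-1, and 143 and 205 in Z138 in CON and at 59.7 in MINO-P, 113 in MINO-VR, 65.6 and 56.3 in JEKO-1 replicates 1 and 2, and 75.4 in Z138 with BTZ, and at 28.8 in JEKO-1 replicate 3. PSME2 was at 58.2 in MINO-P, 107 in MINO-VR, 111 in JEKO-1, and 52.1 and 93.9 in Z138 in CON and at 29.3 in MINO-P, 51.8 in MINO-VR, 26.1 and 29.5 in JEKO-1 replicates 1 and 2, and 28.1 in Z138 with BTZ, and at 16.4 in JEKO-1 replicate 3. No BTZ library of either gene reached a CON library. The log2 differences were -1.51 for PSME1 (SE 0.22, adjusted p = 3.69e-06) and -1.504 for PSME2 (SE 0.25, adjusted p = 3.08e-05), and without JEKO-1 replicate 3 -1.33 (SE 0.20) and -1.35 (SE 0.24). PSME2 may share reads with its copies PSME2P1 (median 25.03 CPM) and PSME2P2 (11.5 CPM).

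Each immunosubunit was next set against the constitutive subunit it replaces, as a log2 ratio of CPM within a library, taken without a pseudocount so that no scaling of the library alters it. PSMB8 over PSMB5 was 0.53 in MINO-P, 0.93 in MINO-VR, -0.21 in JEKO-1 and 0.64 and 0.44 in Z138 CON. With BTZ it was -2.23 in MINO-P, -1.66 in MINO-VR, -2.92 and -3.09 in JEKO-1 replicates 1 and 2, and -2.66 in Z138. In JEKO-1 replicate 3, where both genes were low, it was -2.15, within the range of the other BTZ libraries. JEKO-1 IBR replicates 1 to 3 lay there as well, at -2.49, -2.63 and -2.08, so this ratio does not place the library with BTZ. PSMB9 over PSMB6 ran from -1.15 to 0.28 in CON and from -4.88 to -2.23 with BTZ, the last being JEKO-1 replicate 3. PSMB10 over PSMB7 ran from -1.18 to -0.13 in CON and from -3.40 to -1.78 with BTZ. For each of the 3 ratios every BTZ library lay below every CON library. The ratios were not tested.

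**Figure D3:**
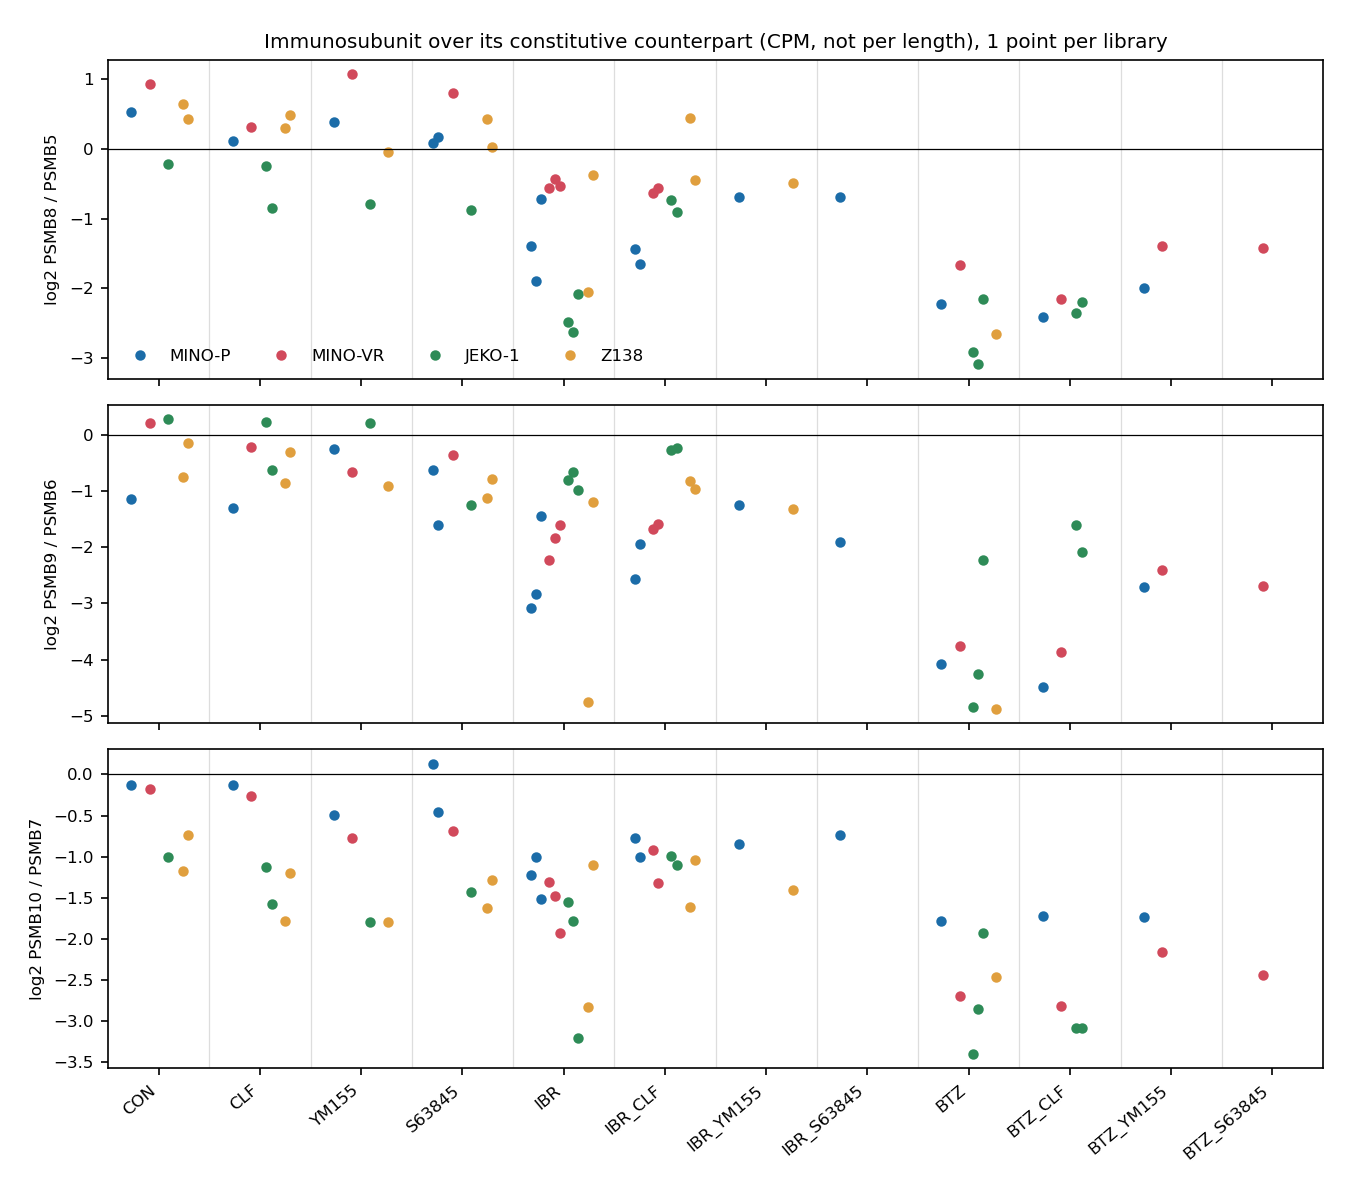
Log2 ratio of each immunosubunit to its constitutive counterpart (vertical axes, 1 panel per pair) by treatment, with 1 point per library coloured by cell line. BTZ points lie below the CON points in all panels, BTZ_CLF points lie below CLF for the first 2 pairs and overlap it for PSMB10 over PSMB7, and the IBR points lie below CON for PSMB8 over PSMB5.

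By line, the median core difference to CON was 1.04 in MINO-P BTZ (33 of 33 genes higher, 22 of them at least 2-fold, where 9.13% of all genes were), 1.498 in MINO-VR BTZ (33 of 33, 24 at least 2-fold, 5.28%) and 1.53 in Z138 BTZ (33 of 33, 31 at least 2-fold, 8.82%). It was 0.63 and 0.74 in JEKO-1 replicates 1 and 2 (31 and 32 of 33 higher, 7 and 8 at least 2-fold, where 9.52% of all genes were in the mean of the 3 JEKO-1 BTZ libraries). In JEKO-1 replicate 3 it was -2.23, with 2 of 33 core genes higher. By the mean of the 3 JEKO-1 libraries it was -0.45, with 9 core genes higher and 24 lower. The names of JEKO-1 replicates 1 and 2 differ only by a suffix a, so they may not be separate cultures. These 2 libraries held 67.6% and 67.5% mitochondrial reads, and the part of that share in their lower values was not tested. A test of whether the BTZ response differed between lines (F test over the 37 group means) called 0 of 40 members and 0.291% of all genes (0 members without JEKO-1 BTZ replicate 3 as well), with the lowest member p for PSMB9 (adjusted p = 0.686). On the deposited scale, where 4.38% of all genes passed, 13 members passed. The comparison rests on 1 BTZ library in each line but JEKO-1, which limits what it can show.

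**Figure D4:**
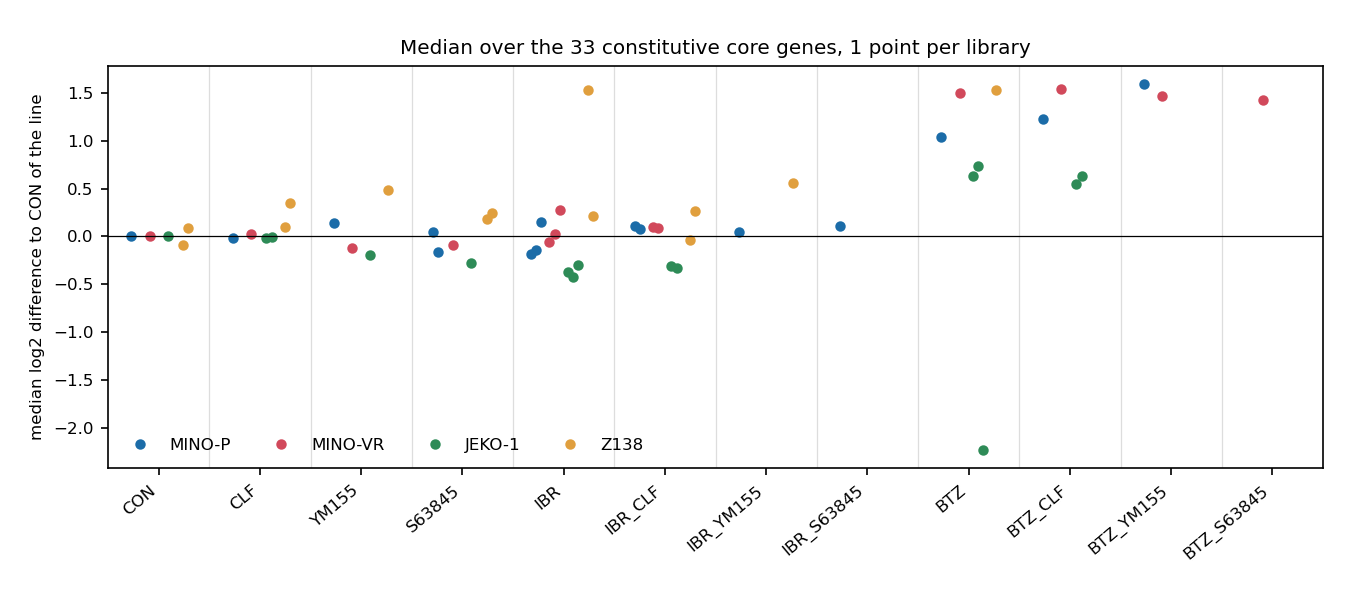
Median log2 difference of the 33 core genes to CON of the same line (vertical axis) for each library by treatment, coloured by line. Libraries with BTZ, alone or with CLF, YM155 or S63845, lie between 0.55 and 1.59 apart from JEKO-1 BTZ replicate 3 at -2.23, and the other libraries lie between -0.42 and 0.56 apart from the one labelled Z138 IBR replicate 1 at 1.54.

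With CLF present, core genes rose with BTZ and 2 immunosubunits, PSMB8 and PSMB9, fell with PSME1 and PSME2. BTZ_CLF against CLF (4 against 6 libraries, which share no library with BTZ against CON) called 22 members. Of these 18 rose (5.55% of all genes) and those 4 fell (10.5%), the latter near the share of all genes. Leaving out both libraries that stood apart, which enter this fit through the shared spread and the line terms, gave 30 that rose (7.8% of all genes) and 4 that fell (14.5%). The ones with the largest rise were PSMD6 (1.61, SE 0.35), PSMC4 (1.57, SE 0.51), PSMD12 (1.55, SE 0.25), PSMC6 (1.51, SE 0.37) and PSMD14 (1.51, SE 0.31).

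PSMD6 was at 58.7 in MINO-P, 55.1 in MINO-VR, 89.8 and 89.9 in JEKO-1 and 56.6 and 75.7 in Z138 with CLF. With BTZ_CLF it was at 216, 260.4, and 186 and 213 in JEKO-1, with no overlap. PSMB9 with CLF was at 31, 61.5, 97.5, 49.3, 22 and 52.7 in the same order. With BTZ_CLF it was at 9.48, 15.9, 24 and 22.6. Within each line it was lower, but the JEKO-1 values overlapped Z138 CLF (log2 difference -1.61, SE 0.38, adjusted p = 0.00249). PSMB8, PSME1 and PSME2 fell by 1.37, 1.21 and 1.30 on the log2 scale (SE 0.30, 0.23 and 0.27). The rise depended on the scale: 2 of the 4 BTZ_CLF libraries, both JEKO-1, held 65.5% and 80.5% mitochondrial reads, and on the deposited scale 0 members rose (1.39% of all genes) and 6 fell (39.2%), with all genes at a median of -0.75. The deposited difference for PSMA6 was -0.13 in place of 0.77.

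With YM155 present, 5 core genes rose with BTZ and no immunosubunit passed in either direction. BTZ_YM155 against YM155 (2 against 4 libraries) called 5 members, all higher (0.343% of all genes): PSMD14, PSMA5, PSMA6, PSMB2 and PSMD11. PSMD14 was at 125 in MINO-P, 62.2 in MINO-VR, 115 in JEKO-1 and 164 in Z138 with YM155, and at 539 and 323 in MINO-P and MINO-VR with both (log2 difference 2.13, SE 0.42, adjusted p = 0.009). Without the 2 libraries that stood apart 31 members rose (1.39% of all genes) and 0 fell (0.877%). The comparison rests on 1 combined library in each MINO line, and leaving out MINO-P BTZ_YM155 left 0 members called.

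PSMB9 was at 65.4 and 45.1 in MINO-P and MINO-VR with YM155 and at 44.9 and 53.7 with BTZ_YM155, where BTZ alone gave 9.46 and 15.5. Its difference to YM155 did not pass (log2 difference -0.27, SE 0.51, adjusted p = 0.959). PSMB8 was at 56.7 and 79.1 with both against 99.2 and 109 with YM155 (log2 difference -0.54, SE 0.40, adjusted p = 0.733). The 1 BTZ_S63845 library, of MINO-VR, had PSMB9 at 34.5 and PSMB8 at 68 beside a core median of 1.42. The BTZ libraries of both MINO lines are of the series HK and the combined ones of the series MCL, so series and added compound cannot be told apart, and the difference between the BTZ effects was not tested.

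With IBR no core gene passed, and PSMB8 fell. IBR against CON (11 against 5 libraries) called 3 of 40 members, all lower (6.39% of all genes fell and 4.37% rose): PSMB8, PSME2 and PSME3. The number that fell was near the share of all genes. Without the library labelled Z138 IBR replicate 1 the comparison called PSMB8 and PSME3, and the share of all genes in that fit is not given here. Without both libraries that stood apart 5 fell (8.02% of all genes fell and 6.82% rose). That fit added PSMB10 (log2 difference -0.96, SE 0.22, adjusted p = 0.00256) and PSME1 (log2 difference -0.56, SE 0.19, adjusted p = 0.0355). 0 members rose with or without them. The median over the 40 genes was 0.27 with all libraries and 0.03 without both, against -0.0018 and 0.0085 over all genes.

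PSMB8 with IBR ranged from 23.6 to 69.6 CPM (median 36.6 over 11 libraries), and every one lay below the lowest CON library, 78.6 (log2 difference -1.53, SE 0.27, adjusted p = 0.000254). In MINO-P the 3 IBR libraries were at 34.5, 30.4 and 67.7, in MINO-VR at 65.5, 68.7 and 69.6, and in JEKO-1 at 28.5, 24.7 and 23.6. Z138 IBR replicate 2 was at 68.1 and the library labelled Z138 IBR replicate 1 at 36.6. JEKO-1 was lowest, and the call held in 31 of 31 alternatives (adjusted p from 2.62e-08 to 0.0445). JEKO-1 CON (158 CPM), MINO-VR CON (184) and MINO-P CON (104) had the highest PSMB8 of their lines. In Z138 the highest was 116, above its CON libraries. Without BTZ or IBR, JEKO-1 S63845 and YM155 differed from JEKO-1 CON by -1.57 and -1.16 on the log2 scale. JEKO-1 CLF replicates 1 and 2 differed by -0.06 and -0.99. PSMB8 below CON was thus not limited to IBR, and the fall in JEKO-1 and the MINO lines is measured from 1 CON library each. PSME3 with IBR ranged from 83.5 to 170.3 (median 124), all below the lowest CON value of 172 (log2 difference -0.72, SE 0.23, adjusted p = 0.0387), but the call was lost in 17 of 31 alternatives (adjusted p up to 0.286). PSME2 ranged from 23.0 to 77.8 (median 32.4), overlapping CON in Z138 replicate 2 and in JEKO-1 replicates 1 and 2 (log2 difference -0.83, SE 0.25, adjusted p = 0.0221). It did not pass without the library labelled Z138 IBR replicate 1 (log2 difference -0.73) and lost its call in 9 of 31 alternatives (adjusted p up to 0.26).

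PSMB9 fell short of the threshold with IBR (log2 difference -0.96, SE 0.35, adjusted p = 0.0658; log2 difference -0.77, SE 0.31, adjusted p = 0.0832 without both libraries that stood apart). It passed with the name suffix of the Z138 libraries as a block (log2 difference -0.97, SE 0.33, adjusted p = 0.045). Its values were 15.8, 16.1 and 31.3 in MINO-P, 27.2, 36.8 and 29.2 in MINO-VR, 50.5, 47.6 and 28.2 in JEKO-1 and 35.8 in Z138 replicate 2. The library labelled Z138 IBR replicate 1 had 7.22, near the 6.65 of Z138 BTZ. BTZ against CON and IBR against CON share the CON libraries. PSMB8 differed from CON by -2.06 with BTZ and -1.53 with IBR, while PSMD12 differed by 1.46 and 0.22. The core median was -0.18, -0.14 and 0.15 in MINO-P IBR, -0.06, 0.02 and 0.27 in MINO-VR and -0.37, -0.42 and -0.30 in JEKO-1. CON of both MINO lines is of series HK and their IBR libraries are of series MCL, so treatment and series cannot be told apart in their values. A test of whether the IBR response differed between lines, chosen after these values were seen, called 0 members and 0.413% of all genes, and 0 members without the library labelled Z138 IBR replicate 1 (0.367%).

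With CLF present, IBR_CLF against CLF (8 against 6 libraries) called 2 of 40 members, where 7.06% of all genes passed. Both were lower, a number near the share of all genes (4.15% fell and 2.91% rose). They were PSMB8 (log2 difference -0.88, SE 0.27, adjusted p = 0.0371) and PSME3 (log2 difference -0.82, SE 0.23, adjusted p = 0.0229). PSMB8 ranged from 40.3 to 74.1 (median 64.2) with IBR_CLF, and PSME3 from 75.6 to 162 (median 111). Of 30 alternatives the call was lost in 13 for PSMB8 and in 10 for PSME3. PSMB9 did not pass (log2 difference -0.13, SE 0.34, adjusted p = 0.871). Without the 2 libraries that stood apart the count was again 2, both lower (6.99% of all genes fell and 5.16% rose). IBR_CLF against IBR called 0 members and 0% of all genes, with 1679 of 17203 genes at an unadjusted p under 0.05. CLF against CON called 0 members and 0% of all genes (62 at an unadjusted p under 0.05), with PSMB5 at 0.14 (SE 0.30) and PSMB8 at -0.20 (SE 0.28).

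YM155 and S63845 as single agents called 0 members each by limma. YM155 called 1.15% of all genes, 0.738% higher and 0.407% lower (2509 at an unadjusted p under 0.05). PSME4 came nearest, at 194 in MINO-P, 127 in MINO-VR, 267 in JEKO-1 and 145 in Z138, higher than CON of the line in 4 of 4 (log2 difference 0.86, SE 0.24, adjusted p = 0.0689). It passed without the 2 libraries that stood apart (log2 difference 0.81, SE 0.22, adjusted p = 0.0312, where 2.49% of all genes rose). CON of both MINO lines is of series HK and their YM155 libraries are of series MCL. Treatment and series thus cannot be told apart in the MINO values. S63845 called 0% of all genes (428 at an unadjusted p under 0.05), with PSMB5 at -0.00099 (SE 0.33) and PSMB8 at -0.41 (SE 0.30).

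The other genes of the pathway came from 3 lists chosen for their known roles. The shares of all genes that rose and fell with BTZ were 4.87% and 13.8%, and 7.87% and 15.5% without JEKO-1 BTZ replicate 3. Of 16 assembly factors and regulators, 3 rose with BTZ and 2 fell, the latter near the share of all genes, and without that library it was 5 and 2. TXNL1, a thioredoxin bound to the 19S cap, rose by 1.59 (SE 0.26, adjusted p = 2.18e-05), USP14, a deubiquitinase of the cap, by 1.12 (SE 0.26, adjusted p = 0.0013), and ECPAS by 1.08 (SE 0.27, adjusted p = 0.00289), and without that library the 3 differences were 1.86 (SE 0.22), 1.00 (SE 0.25) and 1.26 (SE 0.25). The assembly chaperones PSMG1 and PSMG3 fell by 1.51 (SE 0.29, adjusted p = 0.000201) and 1.16 (SE 0.31, adjusted p = 0.00625), against the direction of POMP (-1.47, SE 0.30 and -0.87, SE 0.28 without that library). Of 10 genes of the NFE2L1 arm, 4 rose and 0 fell with all libraries, and 6 and 1 without JEKO-1 BTZ replicate 3, read against the same shares. The gene that fell was DDI2, which passed only without that library (-0.65, SE 0.25, adjusted p = 0.0475 by limma). The small MAF genes MAFF and MAFG rose by 1.91 (SE 0.56) and 1.57 (SE 0.44), and NPLOC4 and UFD1, partners of the segregase VCP, by 1.31 (SE 0.40) and 1.26 (SE 0.39), and without that library the differences in the same order were 2.39 (SE 0.51), 2.09 (SE 0.34), 1.89 (SE 0.25) and 1.84 (SE 0.24). NFE2L1 itself did not pass (-0.35, SE 0.36, adjusted p = 0.552), and its direction turned without that library (0.04, SE 0.29, adjusted p = 0.943). Its activity is known to be set by protein processing, which RNA does not measure.

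Of 9 interferon and peptide-loading genes, 0 rose and 5 fell with BTZ, where 13.8% of all genes fell, and 0 and 8 without JEKO-1 BTZ replicate 3, where 15.5% did. TAP1, a subunit of the peptide transporter, whose span lies inside that of PSMB9, fell by 1.74 (SE 0.29, adjusted p = 2.52e-05), NLRC5, the activator of MHC class I genes, by 1.66 (SE 0.49, adjusted p = 0.0132) and IRF1 by 1.17 (SE 0.29, adjusted p = 0.00296). Without that library these differences were -1.56 (SE 0.28), -1.36 (SE 0.48) and -0.85 (SE 0.24). ERAP2, an aminopeptidase, was at 0.57 (SE 0.35; 0.28, SE 0.32 without that library) and did not pass in either fit.

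MINO-VR was then set against MINO-P over the 9 treatments that both have (12 against 13 libraries, treatment as a term). Of 40 members 14 passed: 9 were higher in MINO-VR (14.2% of 14807 genes) and 5 lower (9.31%), and the member median was 0.06 against 0.03. The 3 immunosubunits and PSME1 and PSME2 were all among those higher, at 0.69 (SE 0.11) for PSMB8, 0.59 (SE 0.15) for PSMB9, 0.24 (SE 0.09) for PSMB10, 0.26 (SE 0.09) for PSME1 and 0.43 (SE 0.12) for PSME2. POMP (0.34, SE 0.10), PSMA2 (0.37, SE 0.09), PSMD4 (0.23, SE 0.08) and PSMB7 (0.65, SE 0.09) were the others. Over 35 alternatives the calls of PSMB10, PSME1, PSMD4 and POMP were lost in 18, 24, 10 and 1. With the 4 pairs of MINO-P and MINO-VR libraries whose names differ by a suffix a averaged, 8 members passed. The share of all genes in that fit is not given here. In the limma fit of all 56 libraries the same difference passed for PSMB8 (0.70, SE 0.18, adjusted p = 0.00953) and PSME4 (-0.53, SE 0.14, adjusted p = 0.00849). No other member passed there, with adjusted p = 0.143 for PSMB7, 0.12 for PSMB9, 0.664 for PSMB10, 0.267 for PSME1 and 0.116 for PSME2. Without JEKO-1 BTZ replicate 3, PSMB7 and PSMC4 passed as well, while PSMB9 (adjusted p = 0.0671) and PSME2 (0.062) did not.

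PSMB7, on chromosome 9 (124353465 to 124415444), was 98.2 in MINO-VR against 71.9 in MINO-P with CON, 106 against 72.9 with CLF and 373 against 169 with BTZ (log2 difference 0.65, SE 0.09, adjusted p = 2.27e-05). PSMB8 was 184 against 104 with CON, 135 against 89.3 with CLF and 52.6 against 23 with BTZ (adjusted p = 8.1e-05 over all shared treatments). Thus MINO-VR was the higher line for both genes with and without BTZ. PSMB5 did not pass, with 117 ± 43.8 CPM in MINO-VR (SD, n = 12) and 109 ± 40.6 in MINO-P (SD, n = 13; log2 difference 0.06, SE 0.09, adjusted p = 0.707). The 5 lower genes were PSME4 (-0.49, SE 0.11), PSMC4 (-0.46, SE 0.10), PSMD8 (-0.38, SE 0.08), PSMD2 (-0.35, SE 0.11) and PSMD14 (-0.29, SE 0.11), of which PSMD2 lost its call in 6 and PSMD14 in 26 of the 35 alternatives. PSMC4 and PSMD8 both lie on chromosome 19, at 39971165 to 39981764 and 38374563 to 38383850. Each line is a single line, so the comparison is of these 2 lines only.

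**Figure D5:**
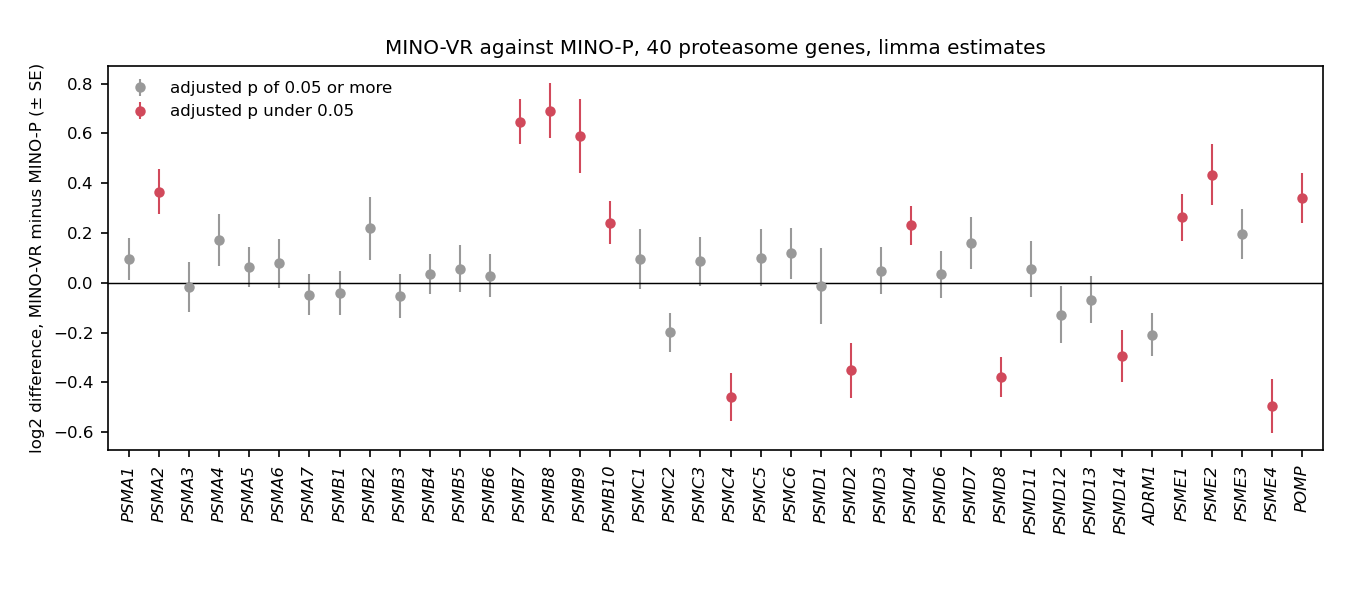
Log2 difference between MINO-VR and MINO-P (vertical axis, limma estimate over the treatments both lines have, bars are 1 SE) for the 40 genes in order of role. Red points passed an adjusted p of 0.05, with PSMB8, PSMB7 and PSMB9 highest and PSME4 lowest.

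Across the 4 lines 15 members passed (F test, limma), where 67.8% of all genes did, and 25 without JEKO-1 BTZ replicate 3. With the Z138 name suffix as a block PSMA2 and PSMB4 were added and PSMB10 was lost. PSMB7 was 1.48 higher in JEKO-1 than in MINO-P on the log2 scale (SE 0.31, adjusted p = 0.000115), with 293 CPM in JEKO-1 CON against 71.9, and 0.79 higher in Z138 (SE 0.30, adjusted p = 0.0307). Without JEKO-1 BTZ replicate 3 these were 1.60 (SE 0.16) and 0.69 (SE 0.15). PSME2 was 0.81 higher in JEKO-1 (SE 0.19) and 0.67 higher in Z138 (SE 0.18), or 0.84 (SE 0.17) and 0.64 (SE 0.17) without it. PSMB9 was 0.72 higher in JEKO-1 (SE 0.26, adjusted p = 0.0253), while its difference in Z138 was 0.08 (SE 0.25), or 0.75 (SE 0.24) and 0.05 (SE 0.24) without it.

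Per kilobase of the principal transcript, the CON level of PSMB8 and PSMB5 was 92.3 and 55.5 CPM in MINO-P, 164 and 74.7 in MINO-VR, 140.4 and 141 in JEKO-1 and 79.6 and 48.1 in Z138. The immunosubunit was thus the higher of the pair in 3 lines and level in JEKO-1. For PSMB9 and PSMB6 the levels were 44.7 and 91 in MINO-P, 109 and 86.6 in MINO-VR, 137 and 104 in JEKO-1 and 52 and 61.9 in Z138. PSMB10 was below PSMB7 in all 4 lines, most in JEKO-1 (120.2 and 299). These rest on 1 CON library per line (2 in Z138). The highest members per kilobase in MINO-P CON were PSME3 (243), PSMA7 (204) and PSMB4 (191), and PSMD12 (16.2) and PSMC1 (6.11, uncertain) were the lowest. The order depends on the 1 annotated length used per gene, such as 998 bases for PSME3, 4406 for PSMD12 and 4448 for PSMC1. Which transcript these cells express was not tested.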

How the data were processed

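Poly-A RNA was sequenced from 56 libraries. The authors deposited 1 table of log2(CPM + 1) values, with genes as entries, and used Partek with build hg38, per the submitters' processing notes (version not given in the sources used here). Values were returned to CPM and rescaled to reads outside 15 mitochondrial genes. 1 entry with no gene name (at most 0.0008% of a library) was left out. Only 79.1% to 89.5% of low values were whole reads within 0.05 read, so no count model was used. 3 reads, the limit a count of 0 allows, equal 0.139 to 0.543 CPM.

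Differences are on the log2(CPM + 1) scale, with a pseudocount of 1, for genes of at least 1 CPM in at least 2 libraries. They were fitted across all genes with limma 3.58.1 (R 4.3.3), with terms for treatment, line and series, Benjamini-Hochberg adjusted p under 0.05. On simulated data of the BTZ against CON comparison (17203 genes) the fit recovered 22% of rises of 1 and 84% of rises of 2 on the log2 scale. Z138 has 5 treatments with a library of plain name and one of suffix A. The differences between them correlated across 13608 genes at r = 0.23 to 0.63 over the 10 pairs of treatments, so the suffix was taken to pair the Z138 libraries, from the data and not from the labels, and was tried as a block. All 40 members were counted. Values in each library were given for PSMB5 to PSMB10, PSME1, PSME2, PSME4, POMP and the called genes with the largest changes, and for further genes chosen after their values were seen (PSMC4, PSME3). 1 gene of the interferon list and 1 promoter motif are not reported here. The members and lists were chosen with earlier results of these data known. Alternatives covered scaling, filter, pseudocount, terms, weights and leaving out each library or line, and those described as added were chosen after seeing the data.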

Additional observations from a re-analysis of the deposited data

Results flagged for a closer look

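Within treatments of 4 to 10 libraries, 66 groups of values (log2 difference to CON of the same line) were searched for 1 library far from the others, and 12 were found. Chance gives about 1 in 20. JEKO-1 BTZ replicate 3 gave 7 of them: the core median was -2.23 (the other BTZ libraries 0.63 to 1.53), PSMB5 -2.16 (0.31 to 1.77), PSMB6 -2.80 (0.16 to 1.89), PSMB7 -3.44 (0.93 to 1.92), PSMB8 -3.99 (-2.36 to -1.39), PSMB10 -4.23 (-1.45 to 0.12) and POMP -1.73 (0.65 to 1.29). JEKO-1 S63845 replicate 1 stood apart for PSMB8 at -1.57 (-0.23 to 0.28) and PSME1 at -1.29 (-0.32 to 0.17). Z138 CLF replicate 2 stood apart for the core median at 0.34 (-0.02 to 0.10) and PSME2 at 0.75 (-0.44 to -0.02). Z138 IBR_CLF replicate 1 stood apart for PSME1 at -0.02 (-0.64 to -0.37).

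Lines went in opposite directions in all their libraries for the core median in 3 cases, and the difference in this median was not tested. For IBR, the test of single members between lines given above called 0 of them. With IBR, Z138 exceeded JEKO-1 by 1.24, where the library labelled Z138 IBR replicate 1 enters the Z138 mean, and by 0.58 without that library. With IBR_CLF, MINO-P exceeded JEKO-1 by 0.41, and MINO-VR exceeded JEKO-1 by 0.41. The JEKO-1 IBR_CLF libraries held 60.7% and 59.1% mitochondrial reads, whose part in this was not tested.

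Some libraries enter no comparison of treatments above, though they enter the test of the 4 lines. Core medians above the highest CON library (0.09) were found in Z138 IBR_YM155 replicate 1 at 0.56, MINO-P IBR_S63845 at 0.11 and MINO-VR BTZ_S63845 at 1.42. MINO-P IBR_YM155 was below it at 0.05. The mark of 0.09 is Z138 CON replicate 2, and CON is 0 by definition in lines with 1 CON library. A value just above it, such as 0.11, therefore shows little.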

How the results depend on the processing

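The number of members called moved by over 1.5 times as follows, and the cause was not tested. Counts are for BTZ against CON (17 as reported), IBR against CON (3), BTZ_CLF against CLF (22), BTZ_YM155 against YM155 (5), IBR_CLF against CLF (2), YM155 against CON (0), the 4 lines (15), MINO-VR against MINO-P (14) and the BTZ response by line (0). With CPM as deposited, BTZ gave 6, IBR 1, BTZ_CLF 6, BTZ_YM155 1, IBR_CLF 1 and the BTZ response by line 13. PSMA6 in BTZ_CLF against CLF then turned from 0.77 to -0.13. With size factors BTZ_YM155 gave 10 and IBR_CLF 1. Without the series term IBR gave 6 and BTZ_YM155 3. In JEKO-1 and Z138 only, BTZ gave 7, IBR 1, BTZ_CLF 0 and IBR_CLF 0. Averaging the 8 pairs of MINO-P, MINO-VR and JEKO-1 libraries whose names differ by a lower-case suffix a (the 5 pairs of Z138, with a capital A, were not averaged) gave BTZ_CLF 14, BTZ_YM155 1, IBR_CLF 0 and MINO-VR against MINO-P 8. Array weights gave BTZ 39, IBR 6, YM155 1, BTZ_CLF 38, BTZ_YM155 32, IBR_CLF 4, the 4 lines 29 and the BTZ response by line 1. Without MINO-P, BTZ gave 10, IBR 1, BTZ_CLF 11, BTZ_YM155 0 and IBR_CLF 0. Without MINO-VR they gave 10, 1, 10, 0 and 0. Without JEKO-1, BTZ gave 36, IBR 5, BTZ_YM155 30 and IBR_CLF 0. Without Z138, BTZ gave 11, IBR 1 and BTZ_YM155 9.

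Among the alternatives added after seeing the data, MINO-P and MINO-VR only gave BTZ 33 and BTZ_CLF 37. Size factors without JEKO-1 BTZ replicate 3 gave BTZ 38. Leaving out libraries over 50% mitochondrial gave BTZ_CLF 10, and CON and CLF libraries only gave the 4 lines 23. Leaving out JEKO-1 BTZ replicate 3 and the library labelled Z138 IBR replicate 1 gave BTZ 38, IBR 5, YM155 1, BTZ_CLF 34 and BTZ_YM155 31.

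Leaving out 1 library at a time gave 14 to 38 for BTZ (38 without JEKO-1 BTZ replicate 3), 1 to 4 for IBR (1 without JEKO-1 CON or Z138 CON replicate 2), 15 to 23 for BTZ_CLF, 0 to 2 for IBR_CLF (0 without JEKO-1 CLF replicate 1 or Z138 CLF replicate 2), 13 to 25 for the 4 lines (25 without JEKO-1 BTZ replicate 3) and 10 to 15 for MINO-VR against MINO-P. For BTZ_YM155 it gave 0 to 5, with 0 without the MINO-P and 1 without the MINO-VR BTZ_YM155 library, and 3 and 1 without the MINO-P and MINO-VR YM155 libraries. PSMB8, PSMB9, PSME1, PSME2 and PSMD12 passed in BTZ against CON in 30 of 30 alternatives.

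The labels carry no replicate numbers and give the name suffix no meaning. With the suffix of all lines as a replicate block, BTZ gave 16, IBR 4, BTZ_CLF 21, BTZ_YM155 5, IBR_CLF 2, the 4 lines 16, MINO-VR against MINO-P 11 and the BTZ response by line 0. The calls of POMP with BTZ, PSMB3 with BTZ_CLF and PSMB10, PSMD14 and PSME1 between the MINO lines were then lost. With the suffix of the Z138 libraries alone as a block, an alternative added after seeing the data, the 7 counts other than MINO-VR against MINO-P were 16, 4, 22, 5, 2, 16 and 0. The calls that changed are given beside their results, and no other call of a member changed.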
